A study of Mus musculus with 6 samples.

Results

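Hlf, Mecom, Bcl2, Mycn and Cdk6 are 5 genes of blood stem cell identity, survival and growth, and this account covers every cytosine that the authors' deposited tables place nearest to one of their transcription starts. The rule took the rows of both tables whose gene name was one of the 5, which gave 15 cytosines out of 6756 listed, nearest to 5 of 3344 genes. The rows were chosen because they were listed, so their differences are a description and carry no test. The assay was enhanced reduced representation bisulfite sequencing, which favours CpG-rich fragments, of genomic DNA from LSK cells sorted from bone marrow of mice 6 months old, with 3 wild-type and 3 Tet1 knockout samples. LSK cells lack lineage markers and carry Sca-1 and Kit, and they hold the haematopoietic stem and early progenitor cells. All samples carry the same strain label, CD57BL/6 in the submitters' spelling. The sources used here do not say how Tet1 was inactivated, nor whether each sample was a different mouse. Each listed cytosine has 1 value over all 6 samples, the difference in methylation between the genotypes in percentage points, given here as knockout minus wild type, and the lists begin at 25 percentage points. No replicate value, coverage or methylation level per genotype was used, so the depth and the spread between samples behind each difference are unknown.

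Tet1 encodes a dioxygenase that oxidises 5-methylcytosine, a first step in removing methylation, and bisulfite sequencing reads the methyl and the hydroxymethyl form alike. Hlf and Mecom are transcription factors of haematopoietic stem cells, and both genes are rearranged in human leukaemias. Bcl2 encodes the founding inhibitor of apoptosis of its family, Mycn a MYC-family transcription factor that drives growth, and Cdk6 a cyclin-dependent kinase that works with D-type cyclins to carry progenitors into the cell cycle. Methylation at a promoter is commonly associated with a silent gene, whereas methylation inside gene bodies and between genes has no single reading.

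Of the 15 cytosines, 14 were hypermethylated in the knockout and 1 was hypomethylated, a hypermethylated share of 93.3% that is close to the 92.8% over all 6756 listed cytosines. The 14 belonged to Bcl2, Mycn, Cdk6 and Hlf, and the hypomethylated cytosine belonged to Mecom. Among 21900 protein-coding genes in the RefSeq table, 13.7% were nearest to a listed cytosine, 12.3% to a hypermethylated and 1.77% to a hypomethylated one. These shares also depend on how many cytosines were read near each gene. The 14 hypermethylated cytosines had differences in the authors' deposited table from 27.7 to 66.5 percentage points, with a median of 39.6. The median of all 6270 hypermethylated cytosines was 41.1, and 6 of the 14 lay above it. The member closest to the start of the lists was a Cdk6 cytosine at 27.7 percentage points, and cytosines under 25 percentage points were not used here.

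**Figure D1:**
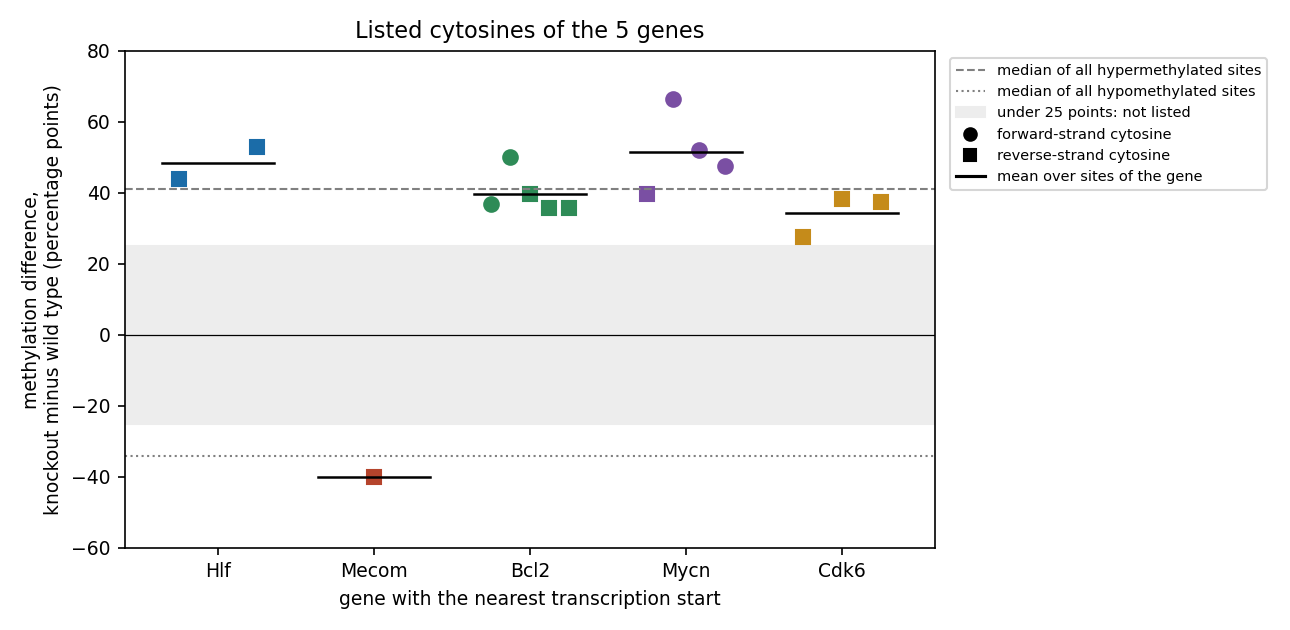
Methylation difference (knockout minus wild type, percentage points, y axis) of each of the 15 listed cytosines, grouped by the gene with the nearest start (x axis). Circles are forward-strand and squares reverse-strand cytosines, short bars are means over a gene's cytosines and not replicate means, dashed and dotted lines are the medians of all hypermethylated and hypomethylated cytosines, and the grey band holds differences too small to be listed; the Mecom cytosine at -40.0 is the 1 point below the band.

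None of the 15 cytosines had the promoter label, none carried a CpG island label, and none was within 1000 bp of a start. By the deposited annotation 5 lay in an exon, 3 in introns and 7 between genes. Of all hypermethylated cytosines, 15.7% lay in exons, 31.3% in introns, 36.1% between genes and 11.2% in promoters, and of all hypomethylated ones 9.26%, 36.6%, 43.6% and 4.53%. An island label was carried by 4.25% of all listed cytosines. It was read from the detailed annotation of each cytosine, which can name another feature instead. Absence of the label therefore does not show that a cytosine, such as those of Bcl2 exon 1, lies outside an island. At 8 of the 15 cytosines the nearest start was 100 kb away or more, as it was for 10.3% of all hypermethylated and 18.1% of all hypomethylated cytosines; the 8 come from 3 genes, and neighbouring cytosines share their distance. The annotated promoters themselves hold recognition sequences of MspI, CCGG, the enzyme that reduced representation methods use to cut DNA. In the 250 bases before the start (RefSeq, GRCm38.p6), CCGG occurred 6 times at Bcl2, 3 times at Cdk6 and 1 time each at Hlf and Mycn. Neither of the 2 Mecom starts in the table had one. CCGG reads the same on both strands and does not overlap itself, and 47.1% of 32851 promoters of this length contain it. The CG dinucleotide, in which most mammalian methylation sits, occurred 36 times at Bcl2, 26 times at Hlf, 22 times at Cdk6, 14 and 8 times at the Mecom starts and 11 times at Mycn, and the median promoter held 6.0. A missing entry in the lists does not show that a promoter was read and did not differ.

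The 250 bases before the Bcl2 start are shown whole, because the listed Bcl2 cytosines lie closer to their start than those of the other genes. For Cdk6, Hlf and Mycn, the 60 bases around the CCGG nearest the start are shown to make the promoters' composition visible. Each runs 5′ to 3′ along the gene's strand in GRCm38.p6, a later build than the mm9 positions of the cytosines, and capitals mark CCGG.
Bcl2 (chr1:106714291-106714540, minus strand): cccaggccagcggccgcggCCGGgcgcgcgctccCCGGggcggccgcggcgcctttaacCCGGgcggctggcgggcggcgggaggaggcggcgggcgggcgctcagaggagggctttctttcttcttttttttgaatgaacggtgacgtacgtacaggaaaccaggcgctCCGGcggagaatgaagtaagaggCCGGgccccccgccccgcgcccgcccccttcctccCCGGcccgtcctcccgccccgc
Cdk6 (chr5:3343816-3343875, plus strand): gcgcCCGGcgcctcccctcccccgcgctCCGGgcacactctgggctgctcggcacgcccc
Hlf (chr11:90391011-90391070, minus strand): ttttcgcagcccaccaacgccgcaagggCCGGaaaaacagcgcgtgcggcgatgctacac
Mycn (chr12:12941861-12941920, minus strand): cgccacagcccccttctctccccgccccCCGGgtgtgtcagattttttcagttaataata
The Bcl2 sequence carries all 6 copies of CCGG, the Cdk6 stretch 2 of its 3, and the Hlf and Mycn stretches their only copy.

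Hlf, a PAR-domain basic leucine zipper factor that marks haematopoietic stem cells, had 2 hypermethylated cytosines in intron 2 of 3 (NM_172563) on the reverse strand of chromosome 11 (mm9). The cytosine at position 90242919, 9312 bp inside the gene from its start, differed by 52.9 percentage points, and the cytosine at 90233504, 18727 bp inside, by 44.0, according to the authors' deposited table. Both lie in the same intron, 9415 bp apart, so they cannot share a read of 50 bases. Both were above the median of the hypermethylated list, at its 77.8th and 58.4th percentile.

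Mecom, whose products include the zinc finger oncoprotein EVI1 and the longer MDS1-EVI1 form, had the only hypomethylated cytosine of the 5 genes. It lay on the reverse strand of chromosome 3 at position 30258415 (mm9), in intron 1 of 2 of NM_021442 and 149994 bp inside from that transcript's start, and the authors' deposited table gives it a difference of -40.0 percentage points. Of the 486 hypomethylated cytosines, 137 had a larger loss, and the median was -34.1. A single hypomethylated cytosine was the usual case: 406 of 434 genes with any had 1. With no second listed cytosine in Mecom, nothing in the tables repeats this value at a neighbouring position. The RefSeq table gives Mecom 2 starts, and the deposited distance refers to NM_021442, the nearest promoter identifier in the authors' deposited table.

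Bcl2 had 5 hypermethylated cytosines within 155 bp on chromosome 1 (108609270 to 108609424, mm9), all labelled exon 1 of 2 (NM_009741) and 1443 to 1597 bp inside from the start. The tables carry separate labels for untranslated exon sequence elsewhere, and none of the 5 has one. In the authors' deposited table, the forward-strand differences were 37.0 percentage points at 108609270 and 50.0 at 108609280. On the reverse strand they were 39.6 at 108609374, 35.8 at 108609416 and 35.8 at 108609424. The 5 values averaged 39.7 percentage points, and both strands carried listed cytosines, although no CG dinucleotide of the cluster was listed on both of its strands. The 2 cytosines at 35.8 are 8 bp apart, within 1 read length, and have identical values, so they may not be separate measurements. A cluster of this size was uncommon: of 3791 hypermethylated regions, joined within a gene from cytosines less than 1000 bp apart, 4.51% had 5 or more. Across the table, 142 genes had hypermethylated cytosines in exon 1, 301 in all with a median of 45.8 percentage points, and 10 of these genes had at least 5.

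Mycn had 4 hypermethylated cytosines on chromosome 12 (mm9), all intergenic and all on the 3′ side of the gene. A cluster of 3 on the forward strand spanned 49 bp, 216613 to 216661 bp from the start. The authors' deposited table gives these differences of 66.5 percentage points at 12731981, 52.2 at 12731984 and 47.6 at 12732029. The first of them had the highest difference of the 15 and stood at the 93.7th percentile of the hypermethylated list. The other Mycn cytosine, on the reverse strand at 12692003 and 256639 bp from the start, differed by 39.6 percentage points. It is 39978 bp from the cluster, so the cytosines nearest to Mycn lie at 2 separate places, both far from its promoter. Only the nearest start ties them to Mycn, and a role at the gene was not tested. Of 3018 genes with hypermethylated cytosines, 85 had all of them at 200 kb or more from the start, and 4 of these had at least 4.

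Cdk6 had 3 hypermethylated cytosines on the reverse strand of chromosome 5 (3193813 to 3193829, mm9), 150483 to 150499 bp upstream of its start. All lay in 1 copy of L1Md_F2, a mouse LINE retrotransposon family. Their differences, from the authors' deposited table, were 27.7 percentage points at 3193813, 38.2 at 3193815 and 37.4 at 3193829, with a mean of 34.4. This is the lowest mean of the 4 genes with hypermethylated cytosines, and none of the 3 values reached the median of the list. Reads from repeats can align to other copies, so the position is less certain than for the other 4 genes. The tables hold 15 further cytosines in L1Md_F2 copies, of which 9 were hypermethylated (25.5 to 46.5 percentage points, median 34.6) and 6 hypomethylated (-41.0 to -25.5, median -30.2). The same repeat family thus occurs in both lists. Of 3018 genes with hypermethylated cytosines, 47 had all of theirs in LINE repeats, and 2, Cdk6 included, had at least 3.

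**Figure D2:**
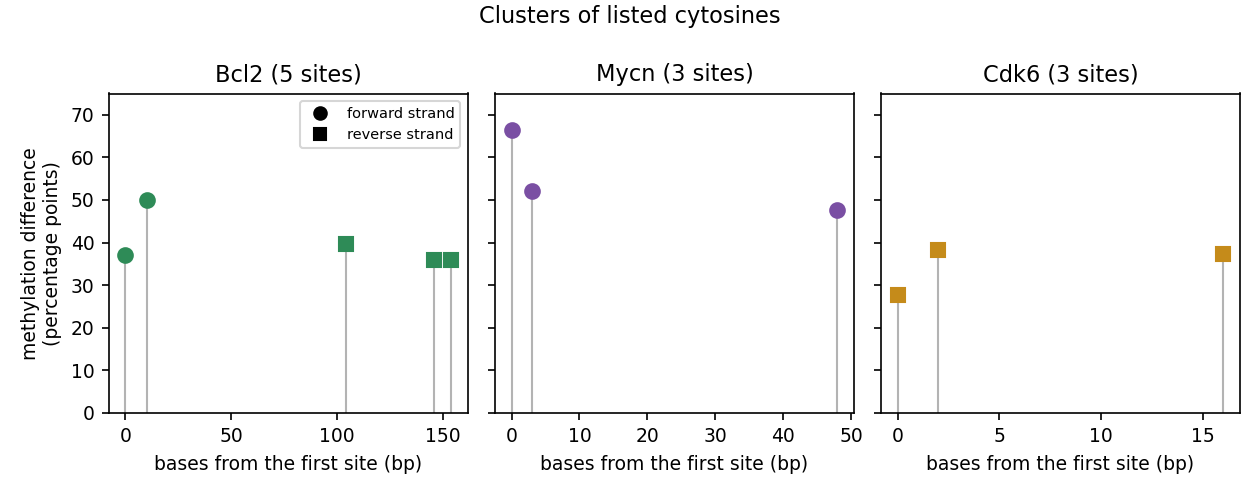
Methylation difference (percentage points, y axis) against the distance in bases from the first cytosine of the cluster (x axis, with a different span in each panel) for the Bcl2, Mycn and Cdk6 clusters. Circles are forward-strand and squares reverse-strand cytosines; the Bcl2 cluster has both strands, and the Mycn cluster starts at 66.5 and ends at 47.6.

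Values also varied between neighbouring cytosines of a cluster. Among all listed cytosines there were 1849 adjacent pairs on 1 strand within 50 bp, and their values differed by a median of 7.65 percentage points (quartiles 3.28 and 13.7). The 7 such pairs in Bcl2, Mycn and Cdk6 differed by a median of 4.55. The widest gap was 14.3 percentage points, between Mycn cytosines 3 bp apart, followed by 13.0 between the forward-strand Bcl2 cytosines 10 bp apart. At Cdk6, cytosines 2 bp apart differed by 10.5 percentage points, whereas the next pair, 14 bp apart, differed by 0.840. Cytosines this close are often covered by the same reads, so such gaps describe the listed values and are not replicate errors. The read counts behind each value are unknown, and whether they account for the gaps was not tested.

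The surroundings of each gene were then examined. Within 1 Mb of the Hlf start there were 8 further listed cytosines, all hypermethylated, nearest to Ankfn1, Tmem100, Mmd and Tom1l1. The Ankfn1 group of 5 was the farthest, at 845476 to 845582 bp on the 3′ side of Hlf, with deposited differences from 49.5 to 62.0 percentage points. Bcl2 had 5 further hypermethylated cytosines in its window. Of these, 3 lay in an intron of Kdsr, which encodes an enzyme of sphingolipid synthesis, 44410 to 44446 bp upstream of the Bcl2 start, and differed by 47.8, 53.6 and 61.5 percentage points. All 3 exceeded 4 of the 5 Bcl2 values, and 2 exceeded all 5. The other two were nearest to Tnfrsf11a, the receptor RANK, at 63.9 and 66.7 percentage points.

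Mycn had no listed cytosine of another gene within 1 Mb. Mecom had 1, a hypermethylated cytosine of Slc7a14 at 31.8 percentage points and 800136 bp upstream. Cdk6 had 1 as well, nearest to Akap9 and 581031 bp downstream, which was hypomethylated by -25.5 percentage points and lay in another L1Md_F2 copy. Of the 20 protein-coding neighbours of the 5 genes by RefSeq order, 2 on each side, 5 were nearest to any listed cytosine (13.7% of all protein-coding genes were): Tmem100, Mmd, Egfem1, Kdsr and Rad51ap2.

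**Figure D3:**
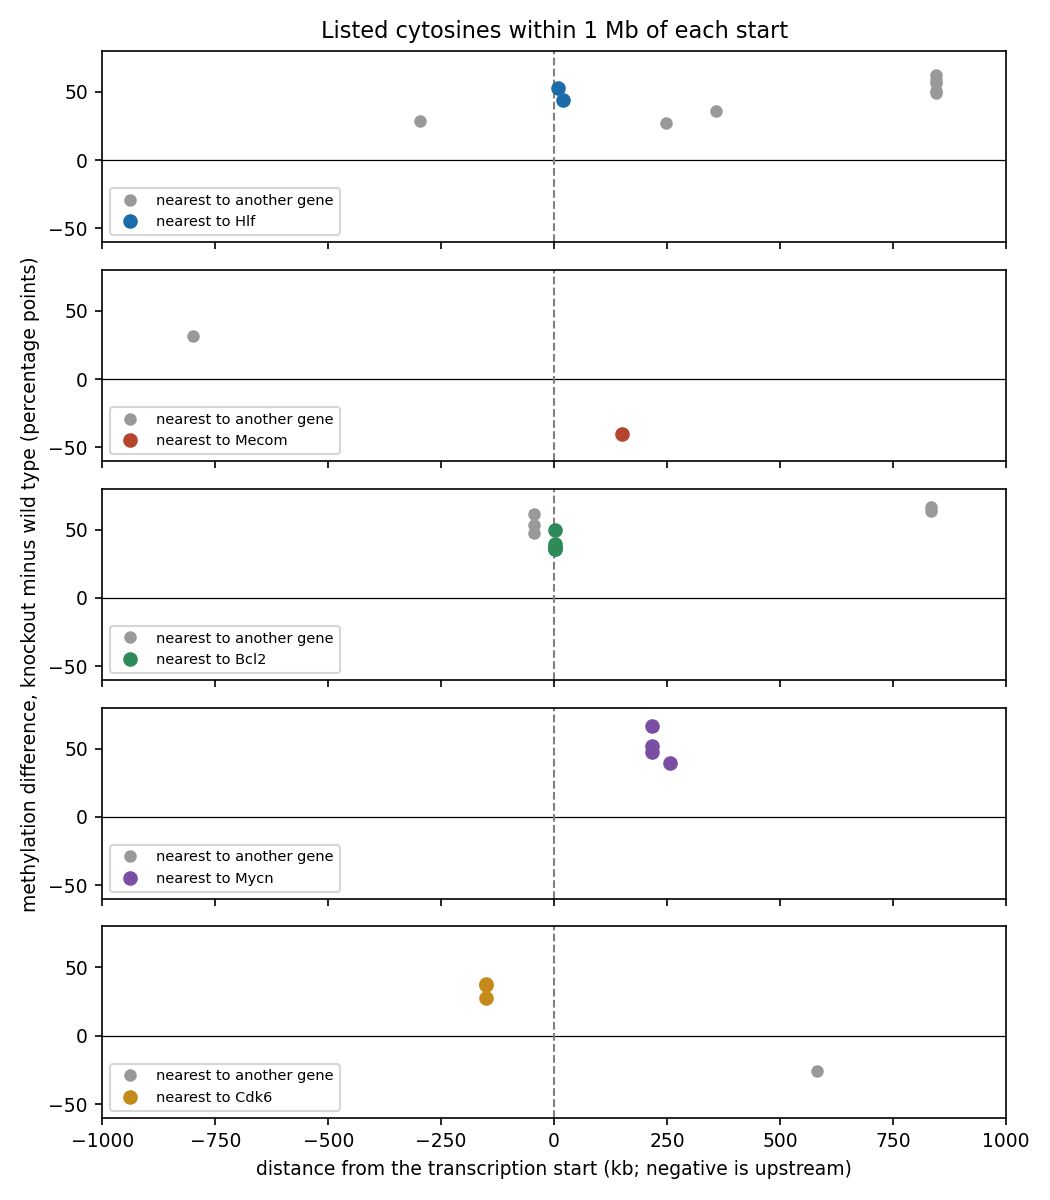
Methylation difference (knockout minus wild type, percentage points, y axis) of every listed cytosine within 1 Mb of the start of each gene, against its distance from that start (kb, x axis, negative is upstream; the dashed line is the start). Coloured points are nearest to the named gene and grey points to another; the Bcl2 points sit beside the start at 1443 to 1597 bp, with the 3 Kdsr points upstream of it.

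Other genes had like patterns in the tables. Likeness was set by the same number of hypermethylated and hypomethylated cytosines and the same commonest feature, and then by the smallest gap in mean difference. Distance from the start and the spread of values did not enter it. For Hlf, 175 genes had 2 hypermethylated cytosines mostly in introns, and the nearest in mean were Aldh2 (48.4 percentage points) and Cyth1 (48.1). Their cytosines lay at 803 to 6375 bp from their starts, those of Hlf at 9312 and 18727 bp. For Mecom, 121 genes had 1 hypomethylated intron cytosine alone, and the nearest were Mrap at -40.0 and Irf1 at -39.4 percentage points. These lay 18048 and 33943 bp from their starts, the Mecom cytosine 149994 bp. For Bcl2, 18 genes had 5 hypermethylated cytosines mostly in exons, with Nars (40.6) and Fbxo41 (37.1) nearest to its mean of 39.7. Their cytosines lay at 14802 to 24732 bp from their starts, those of Bcl2 at 1443 to 1597 bp. For Mycn, 62 genes had 4 mostly intergenic cytosines, with Snai1 (52.0) and Socs7 (52.7) nearest to its mean of 51.5, but at 21409 to 43092 bp from their starts. For Cdk6, 111 genes had 3 mostly intergenic cytosines, with 4933406K04Rik (34.2) and Grik3 (34.6) nearest to its mean of 34.4. Their cytosines lay at 42586 to 112676 bp from their starts, those of Cdk6 at 150483 to 150499 bp.

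The related genes were counted next, from lists chosen with earlier results of these data known. Of 19 genes of the BCL2 family, 3 (15.8%) were nearest to a listed cytosine, against 13.7% of protein-coding genes. Bcl2l11, which encodes the pro-apoptotic protein BIM, had 5 hypermethylated cytosines (41.0 to 53.3 percentage points as deposited), as many as Bcl2. Of these, 3 lay in intron 17 of another transcript, 1 at that transcript's end and 1 was intergenic, 150357 bp away. Pmaip1, the gene of the pro-apoptotic protein NOXA, had 1 hypermethylated intergenic cytosine at 27.0 and 1 hypomethylated cytosine in intron 1 at -29.1 percentage points. Mcl1, Bcl2l1, Bax and Bak1 were among the 16 with none.

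Of 13 genes of the MYC and MAX network, 4 (30.8%) were listed, all with hypermethylated cytosines alone, against 13.7% of protein-coding genes with any listed cytosine and 12.3% with a hypermethylated one. Mnt, a MAX partner that represses MYC targets, had 6 intergenic cytosines 1551 to 1704 bp from its start, with differences that the authors' deposited table puts at 36.1 to 58.4 percentage points. Mycl, the third MYC-family gene, had 1 at 32.7 and Mlxip 1 at 26.5 percentage points. Myc itself had none. Of the network's 12 cytosines, 10 were nearest to Mnt or Mycn.

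In the G1 pathway of cyclins, kinases, their inhibitors and RB proteins, 2 of 26 genes (7.69%) were listed, beside the 13.7% of protein-coding genes. Cdk6 was the only kinase and no cyclin was listed. The other was Cdkn1c, which encodes the CDK inhibitor p57 and is imprinted, with 9 hypermethylated cytosines from 25.2 to 58.6 percentage points, 7 of them in CpG islands. Among 23 stem cell transcription factors 4 (17.4%) were listed, 2 with hypermethylated and 2 with hypomethylated cytosines. Protein-coding genes had shares of 13.7% for either, 12.3% and 1.77%. Hlf and Mecom, chosen for being listed, are among the 4, so the count in each direction partly reflects that choice. Foxo3, a factor of stem cell quiescence, shared the direction of Mecom, with 1 cytosine in intron 2 at -36.4 percentage points. Lyl1 had 1 hypermethylated cytosine at 33.8 percentage points, in an exon of another transcript. Runx1, Gata2, Tal1, Meis1 and Erg had none.

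Of 4 genes in the list of PAR basic leucine zipper factors and their relative Nfil3, Hlf and Nfil3 were listed (50.0%, with 13.7% over protein-coding genes), and Nfil3 had 2 hypermethylated cytosines at 37.2 and 38.3 percentage points. Dbp and Tef had none. Of 15 PRDM genes, the family of Mecom, 4 (26.7%) were listed, again beside 13.7%. Prdm14 had 4 hypermethylated cytosines (28.7 to 69.3 percentage points), 3 of them in a SINE repeat. Prdm2 had 3 (37.2 to 58.5), all at 187800 bp or more from its start and 2 of them in repeats. Prdm8 had 1 in each direction, which the authors' deposited tables give as 49.9 and -33.3 percentage points. The median hypermethylated difference was 41.0 percentage points in the BCL2 family, 44.2 in the MYC and MAX network, 35.6 in the G1 pathway, 44.0 among the stem cell factors, 41.2 in the PAR list and 46.1 in the PRDM family, beside 41.1 over all hypermethylated cytosines. The counts are small, and each list includes at least 1 gene chosen for being listed, the stem cell list both Hlf and Mecom. Lists also differ in how much of their sequence the assay reads, so no list was set against another.

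**Figure D4:**
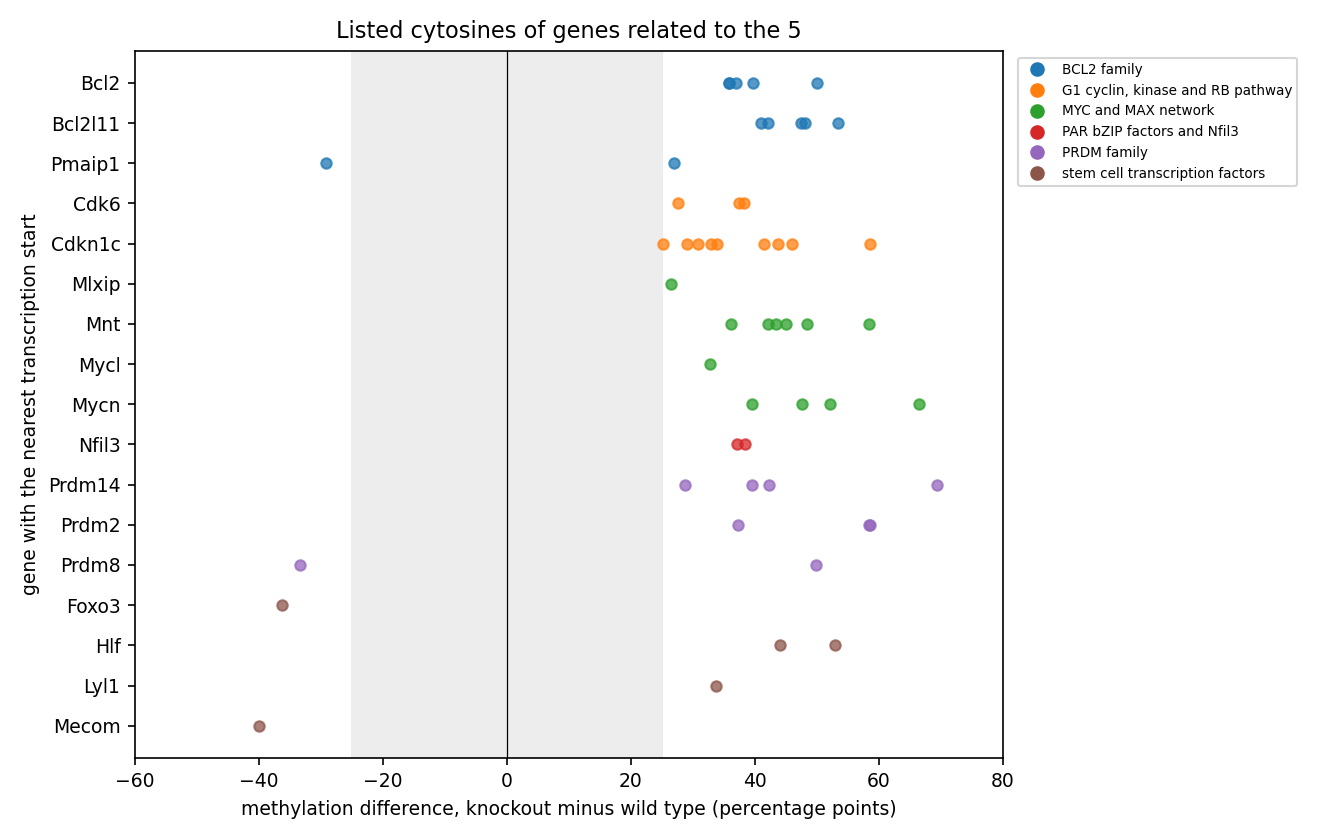
Methylation difference (knockout minus wild type, percentage points, x axis) of every listed cytosine of the related genes, 1 row per gene (y axis), coloured by gene list; a gene in 2 lists is drawn once. The grey band holds differences too small to be listed; Mecom, Foxo3, Prdm8 and Pmaip1 have points to its left.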

How the data were processed

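The authors sequenced bisulfite-converted DNA of 3 wild-type and 3 Tet1 knockout LSK samples with single reads of 50 bases, per the labels' protocols. The submitters' processing notes name Bismark and mm9, with neither role nor version. Not given in the sources used here are the caller of differences, its coverage minimum, its significance threshold and the way samples were combined. The authors' deposited tables (annotated on mm9, per the file headers) give a methylation difference in percentage points per cytosine and the distance in bp to the nearest transcription start. There were 0 columns of per-sample values. The direction comes from the list names and signs.

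Python 3.11.15 and pandas 2.3.3 were used to select rows by gene name, join cytosines of a gene and direction less than 1000 bp apart, and count. The joining was tested on simulated data. The side of a start came from the distance's sign and the cytosine's strand. All cytosines of a gene implied 1 start. Of 3344 Entrez identifiers, 3338 were found in the RefSeq table (GRCm38.p6), as were all 105 symbols of the 7 gene lists, and this table gave names, gene order and promoter sequence only. Named genes were the 5 genes, the 2 most like each, and up to 6 listed members per gene list. The neighbours, the window genes and the unlisted family members named were chosen after their values were seen. The members and lists were chosen with earlier results of these data known. A further gene was left out of the stem cell factor list and is not reported here. No test was run. Alternatives were a minimum of 40 percentage points, forward-strand cytosines alone, no repeats, other joining distances, other summaries per gene and a limit on distance.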

Additional observations from a re-analysis of the deposited data

How the results depend on the processing

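With a minimum of 40 percentage points, hypermethylated cytosines of the 5 genes fell from 14 to 6, their median moved from 39.6 to 51.1 and the Bcl2 mean to 50.0 (1 cytosine), and no Cdk6 cytosine was left. The stricter minimum by itself leaves fewer cytosines with larger differences. At that minimum listed genes numbered 2 of the stem cell factors, 1 of the PAR basic leucine zipper list, 2 of the MYC and MAX network and 1 of the G1 pathway, Cdkn1c. Forward-strand cytosines alone left 5 hypermethylated (median 50.0) and 0 hypomethylated cytosines in 2 regions, of Bcl2 and Mycn. Cytosines within 100 kb of a start left 2 PRDM genes and 1 G1 gene. The share over all protein-coding genes was not counted under either limit, so the 13.7% of the full lists is no background for these counts. Without repeats there were 11 hypermethylated cytosines. The 5 genes kept 7 regions when cytosines were joined within 200 or 5000 bp. No value changed sign under the alternatives run, but none could, because each gene has listed cytosines in 1 direction only. Because the tables hold no replicate values, movement of a mean was read against the spread over a gene's cytosines. Leaving out each replicate was not run, since each cytosine has 1 value over all samples. No paired analysis was possible because the columns carry no replicate numbers. Coverage was not used here, so how far depth limits these values is unknown.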

Other observations

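Genes of the methylation machinery were themselves nearest to a few listed cytosines. Of 8 genes of TET and DNMT enzymes and their partners, 3 were listed, each with 1 hypermethylated cytosine, where 12.3% of protein-coding genes were nearest to a hypermethylated one. Dnmt3b, a de novo methyltransferase, had its cytosine in intron 2 of 22 at 51.5 percentage points in the authors' deposited table. Dnmt3l, its catalytically inactive partner, had one in intron 1, 183 bp from the start, at 41.2 percentage points, and Tet2 had one 210226 bp away at 30.1. Tet1, Tet3, Dnmt1, Dnmt3a and Uhrf1 had none, so the tables hold no value at the targeted gene.

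Of 7 genes that mark LSK or stem cells (among them Kit, Ly6a and Procr), 0 were nearest to a listed cytosine. Of 10 lineage marker genes, the count was also 0. The share over all protein-coding genes was 13.7%, so a count of 0 among so few genes is not read as a difference. A list of differences does not identify the sorted cells.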
